A study of Mus musculus with 5 samples.

Results

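The Serpina3 genes are a mouse family of clade A serpins, protease inhibitors that trap their target with a reactive loop, and the data describe which of them were transcribed in collagen-expressing liver cells of chow-fed mice and of mice with chemically and diet-induced liver tumours. The members were a given list of 7 genes, Serpina3c, Serpina3f, Serpina3g, Serpina3h, Serpina3i, Serpina3m and Serpina3n, and 6 of them were counted among the 31053 genes of the matrices. Serpina3h has no row there and was not analysed here. The list was chosen by measured values of the same libraries: the levels with and without treatment in each gate, the share of Lrat-positive cells with each member and the relation to the chemokines Cxcl9 and Cxcl10. These are therefore given as descriptions.

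Hepatic stellate cells are the vitamin A-storing pericytes of the liver sinusoid and the main collagen producers of the injured liver, and Lrat, which esterifies retinol, is their defining transcript. Humans have a single SERPINA3 gene, alpha-1-antichymotrypsin, whereas in mice repeated duplication gave a cluster of copies that differ mainly around the reactive loop. Serpina3n is a secreted acute-phase inhibitor of granzyme B and of neutrophil elastase, and Serpina3g, also called Spi2A, is an intracellular inhibitor of lysosomal cathepsins that is induced in leukocytes by interferon and NF-kB. Serpina3k and Serpina3m are plasma-type genes of hepatocytes. Cxcl9 and Cxcl10 are chemokines induced by interferon that attract CXCR3-bearing T cells.

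Cells were sorted from male Rosa26mTmG;Col1a1-Cre mice on a C57BL/6J background, in which Cre under a collagen promoter turns on membrane GFP, so a Col1a1+ cell is one that expressed the Cre at some time and not necessarily one that makes collagen now. DEN+WAD mice received 10 mg/kg of the hepatocarcinogen diethylnitrosamine at 2 weeks of age and, from 6 weeks, a liquid Western diet with 3.5% (v/v) ethanol for 5 months, and chow mice received saline and chow. Vitamin A autofluorescence and GFP set the gates VitA+Col1a1+ and VitA-Col1a1+, each with 1 DEN+WAD and 1 chow library, and VitA-Col1a1-, with 1 DEN+WAD library. All 5 were droplet libraries of 3' ends counted in unique molecular identifiers (UMIs), and the number of mice in each is not given in the sources used here. With 1 library per group nothing could be tested. Ratios and intervals below compare these libraries, cover counting error only at the 95% level, and carry no p-value.

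Depth differed between the groups. The DEN+WAD libraries held 10481 cells (VitA+Col1a1+), 2729 cells (VitA-Col1a1+) and 9870 cells (VitA-Col1a1-), against 259 and 668 cells in the VitA+Col1a1+ and VitA-Col1a1+ chow libraries. Total UMIs ranged from 6145748 to 149936344 per library, and median UMIs per cell were 13232 and 16696 in the DEN+WAD and 24077 and 22208.5 in the chow libraries of the VitA+Col1a1+ and VitA-Col1a1+ gates. Treatment, depth and library cannot be told apart. The library labelled VitA-Col1a1- went against its label: Col1a1 stood there at 1061.6 UMIs per 1000000 UMIs of its library (CPM) and Lrat at 448 CPM, and 43.3% of its barcodes were Lrat-positive with at least 5000 UMIs. It is therefore called the library labelled VitA-Col1a1- throughout, and no direction is drawn from its gate. Lrat-positive cells of that depth made up 95.8% and 93.8% of the VitA+Col1a1+ barcodes and 69.0% and 71.9% of the VitA-Col1a1+ barcodes in DEN+WAD and chow. The libraries shared between 2 and 40 of their cell barcodes with any other library.

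All counted members lie in 1 cluster on mouse chromosome 12 (GRCm38, GENCODE M21), which spans 267.948 kb from Serpina3c to Serpina3n. Serpina3c (ENSMUSG00000066361) is at chr12:104146382-104153870 on the minus strand, and the others are on the plus strand. Serpina3f (ENSMUSG00000066363) is at chr12:104214544-104221129 and Serpina3g (ENSMUSG00000041481) is its neighbour at chr12:104236245-104241939. Serpina3h, annotated as a transcribed unprocessed pseudogene, is at chr12:104247905-104253669, Serpina3i (ENSMUSG00000079014) at chr12:104263122-104269372 and Serpina3n (ENSMUSG00000021091) at chr12:104406729-104414329. Serpina3m (ENSMUSG00000079012), at chr12:104338486-104394257, contains the whole annotated span of Serpina3k (chr12:104338486-104346144), so its counts are uncertain. Transcripts of Serpina3f and Serpina3g were 88.6% identical, those of Serpina3f and Serpina3i 88.0%, those of Serpina3c and Serpina3m 89.6% and those of Serpina3m and Serpina3k 90.9%. In the last 500 exonic bases, where 3' libraries are read, Serpina3f and Serpina3g shared an unbroken run of at most 54 bases, and 0 of 410 windows of 91 bases occurred unchanged in another member or Serpina3 gene. Reads too short or too noisy to span a difference may still have been split or dropped between copies, and so each result is given for single members and for their sum.

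The promoter windows below carry the feature by which Serpina3f, Serpina3g and Serpina3i, the neighbouring trio, stood apart from Serpina3c and Serpina3n. Each window runs from 250 bases before to 50 bases after a RefSeq transcription start (GRCm38.p6), is written 5' to 3' in the direction of transcription, and has in capitals every match to the STAT palindrome TTCNNNGAA, whose reverse complement is the same motif. Windows were found for 5 of the 7 members, and for Serpina3f the first of its annotated starts is shown.
Serpina3f, chr12:104214294-104214593, plus strand: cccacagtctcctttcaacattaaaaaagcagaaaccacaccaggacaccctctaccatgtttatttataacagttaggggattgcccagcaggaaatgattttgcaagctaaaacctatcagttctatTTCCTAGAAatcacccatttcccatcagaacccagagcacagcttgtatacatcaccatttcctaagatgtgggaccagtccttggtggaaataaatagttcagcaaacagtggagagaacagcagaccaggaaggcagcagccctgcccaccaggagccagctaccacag
Serpina3g, chr12:104235897-104236196, plus strand: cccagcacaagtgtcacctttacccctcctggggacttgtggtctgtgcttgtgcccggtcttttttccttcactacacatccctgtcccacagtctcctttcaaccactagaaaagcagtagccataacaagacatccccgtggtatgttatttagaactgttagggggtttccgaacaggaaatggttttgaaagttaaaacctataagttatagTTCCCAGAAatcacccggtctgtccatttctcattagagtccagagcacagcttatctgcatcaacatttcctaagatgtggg
Serpina3i, chr12:104262872-104263171, plus strand: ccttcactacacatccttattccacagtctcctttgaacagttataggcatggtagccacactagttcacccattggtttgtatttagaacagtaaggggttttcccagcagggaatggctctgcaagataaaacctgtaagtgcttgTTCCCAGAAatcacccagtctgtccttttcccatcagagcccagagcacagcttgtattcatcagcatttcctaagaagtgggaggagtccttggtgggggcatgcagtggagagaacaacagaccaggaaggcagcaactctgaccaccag
Serpina3c, chr12:104153823-104154122, minus strand: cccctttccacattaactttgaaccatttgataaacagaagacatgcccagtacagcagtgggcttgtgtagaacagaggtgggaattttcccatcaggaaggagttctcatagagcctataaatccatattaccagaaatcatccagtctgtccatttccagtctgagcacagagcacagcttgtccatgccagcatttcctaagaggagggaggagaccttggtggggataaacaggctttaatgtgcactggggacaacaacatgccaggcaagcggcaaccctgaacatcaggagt
Serpina3n, chr12:104406458-104406757, plus strand: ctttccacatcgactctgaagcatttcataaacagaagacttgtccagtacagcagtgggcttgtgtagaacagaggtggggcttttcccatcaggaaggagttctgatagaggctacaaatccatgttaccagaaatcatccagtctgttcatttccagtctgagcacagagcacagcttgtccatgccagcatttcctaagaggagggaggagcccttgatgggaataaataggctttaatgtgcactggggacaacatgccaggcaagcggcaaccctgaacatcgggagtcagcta
The palindrome began 121 bases before the start in Serpina3f, 33 before it in Serpina3g and 102 before it in Serpina3i, within a stretch that the trio share in much of its sequence. It was found in 8.30% of all 32851 RefSeq promoter windows of this length, and in none of the windows of Serpina3c, Serpina3n, Cxcl9 and Cxcl10. The interferon-stimulated response element core TTTCNNTTTC, searched on both strands, was in no member's window, in that of Cxcl10 and in 3.44% of all windows. The NF-kB core GGGANNNNCC, also on both strands, was in the windows of Serpina3f, Serpina3i, Serpina3n, Cxcl9 and Cxcl10 and in 20.7% of all windows. The window of the other Serpina3f start held no match to this core. A match describes letters in a window, and an absent match says nothing of a factor.

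Summed over all barcodes, Serpina3g and Serpina3f were the leading members in both Col1a1+ gates of DEN+WAD mice. This did not hold in each kind of cell, as given below. In DEN+WAD Serpina3g measured 84.9 CPM (83.4 to 86.4) among VitA+Col1a1+ cells and 75.0 CPM (72.6 to 77.5) among VitA-Col1a1+ cells. In chow it stood at 8.30 CPM (6.18 to 10.9) in VitA+Col1a1+ cells and 8.002 CPM (6.63 to 9.57) in VitA-Col1a1+ cells. The chow levels overlapped each other and lay below each DEN+WAD level. In the library labelled VitA-Col1a1- Serpina3g reached 184 CPM (181 to 186), its highest level of the 5 libraries.

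Serpina3f had a similar order with a lower level and an uneven chow background. It stood at 36.8 CPM (35.9 to 37.8) and 37.5 CPM (35.8 to 39.3) in the VitA+Col1a1+ and VitA-Col1a1+ DEN+WAD libraries, which overlapped. In chow it stood at 13.7 CPM (10.9 to 16.9) in VitA+Col1a1+ cells and at 2.60 CPM (1.85 to 3.56) in VitA-Col1a1+ cells, and 30 of the 84 VitA+Col1a1+ chow UMIs came from 1 barcode. The library labelled VitA-Col1a1- was again the highest, at 69.4 CPM (67.9 to 71.0). Because each UMI is 1 captured 3' end, the members' UMIs can be set beside each other without a length correction. Serpina3g gave 2.30 UMIs (2.23 to 2.38) for each Serpina3f UMI in VitA+Col1a1+ DEN+WAD cells and 0.607 (0.420 to 0.870) in VitA+Col1a1+ chow cells, where the order of the pair was turned around and that 1 barcode gave 30 of the Serpina3f UMIs. In VitA-Col1a1+ cells the ratio was 2.00 in DEN+WAD and 3.08 in chow, where 1 barcode gave 55 of the 120 Serpina3g UMIs. Among Lrat-positive VitA-Col1a1+ chow cells it was 1.04 (0.564 to 1.93), and without other types' markers 0.529 (0.208 to 1.26).

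Serpina3n, the secreted acute-phase member, was higher among VitA-Col1a1+ cells with either treatment. It gave 0 UMIs of 6145748 in VitA+Col1a1+ chow cells, which allows up to 0.488 CPM, and 4.22 CPM (3.89 to 4.56) after DEN+WAD. In VitA-Col1a1+ cells it stood at 20.1 CPM (17.9 to 22.5) in chow and 24.9 CPM (23.5 to 26.4) in DEN+WAD. The library labelled VitA-Col1a1- held it at 60.4 CPM (58.9 to 61.9). All 5 intervals were apart from each other. Portal fibroblast markers, summed over the list, moved with the gate in the same way, at 192 and 144 CPM in the VitA+Col1a1+ DEN+WAD and chow libraries and at 1684.7 and 4199.9 CPM in the VitA-Col1a1+ ones. They were higher in chow than in DEN+WAD VitA-Col1a1+ cells, whereas Serpina3n was not.

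Serpina3c, the minus-strand member, also went with the VitA-Col1a1+ gate. It stood at 5.27 CPM (4.17 to 6.57) in VitA-Col1a1+ chow and 4.91 CPM (4.30 to 5.58) in VitA-Col1a1+ DEN+WAD cells, which overlapped, against 0.325 CPM (0.0394 to 1.18) and 0.467 CPM (0.364 to 0.590) in the VitA+Col1a1+ chow and DEN+WAD libraries. The library labelled VitA-Col1a1- lay between the gates at 1.38 CPM (1.17 to 1.62). Serpina3c and Serpina3n together gave most family UMIs of VitA-Col1a1+ chow cells, 14.5% and 55.6%, while Serpina3f and Serpina3g gave 29.3% there and 95.8% in VitA+Col1a1+ DEN+WAD cells.

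Serpina3i and Serpina3m were scarce. Serpina3i gave 0.540 CPM with VitA+Col1a1+ DEN+WAD, 1.24 CPM with VitA-Col1a1+ DEN+WAD and 3.42 CPM in the library labelled VitA-Col1a1-, and the chow libraries held 1 and 2 UMIs of it. Serpina3m stood at 8.50 CPM in the library labelled VitA-Col1a1- and at or below 0.483 CPM in the other libraries, 0 UMIs in VitA+Col1a1+ chow included. Of the Serpina3 genes outside the list, Serpina3k was likewise highest in the library labelled VitA-Col1a1-, with 53.2 CPM there and 0.934, 4.37, 0.488 and 0.200 CPM in the VitA+Col1a1+ DEN+WAD, VitA-Col1a1+ DEN+WAD, VitA+Col1a1+ chow and VitA-Col1a1+ chow libraries. Alb, the albumin transcript of hepatocytes, was also highest there, at 2453.9 CPM against 17.2 to 174 CPM in the others. Serpina3b stayed at or under 0.729 CPM, and Serpina3a and Serpina3j gave 0 UMIs in every library.

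**Figure D1:**
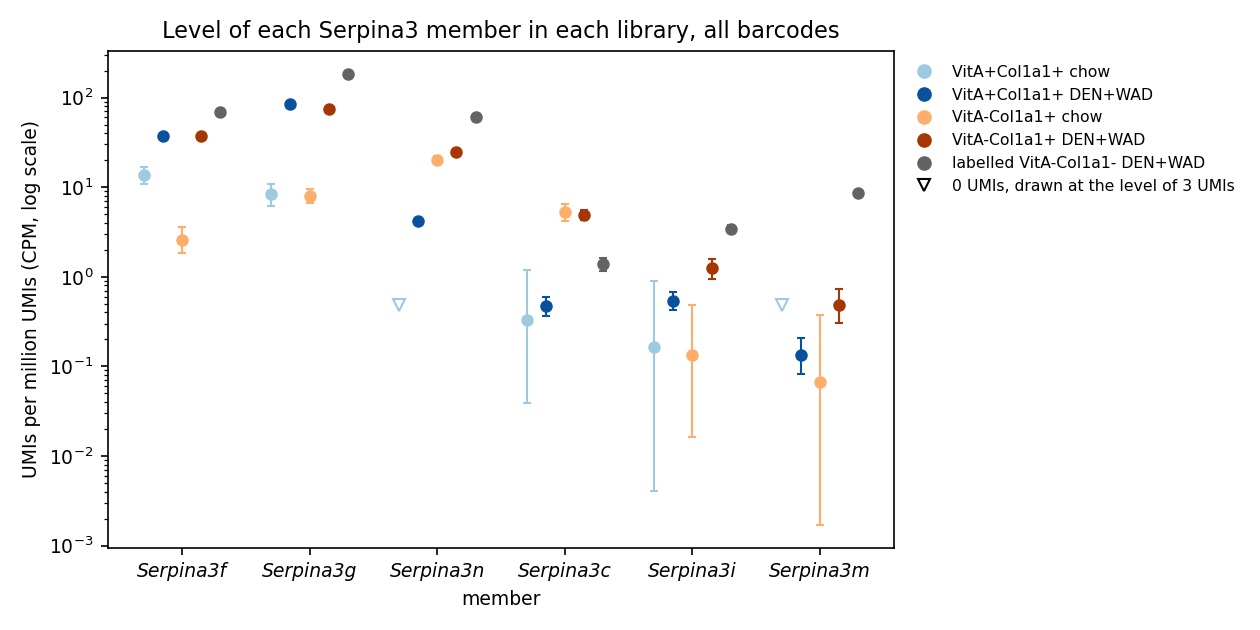
CPM of each counted member (log axis) in the 5 libraries, with points for the level, bars for the 95% counting interval, and open triangles at the level of 3 UMIs where a library held 0. Serpina3f and Serpina3g sit higher in both DEN+WAD libraries than in the chow library of the same gate, whereas Serpina3n and Serpina3c sit higher with VitA-Col1a1+ than with VitA+Col1a1+ sorting.

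DEN+WAD was next set against chow within each Col1a1+ gate, the comparison for which the sorts were made. In VitA+Col1a1+ cells Serpina3g was 10.2-fold higher in DEN+WAD (7.77 to 13.7) and Serpina3f 2.69-fold (2.17 to 3.38). Serpina3n, with 632 UMIs against 0, was at least 8.64-fold higher, taking 3 UMIs as the floor of the chow library. Serpina3c (1.43, 0.383 to 12.1) and Serpina3i (3.32, 0.579 to 133) had 2 and 1 UMIs in chow and intervals that crossed 1, and Serpina3m had too few UMIs for a fold. The summed members were 5.66-fold higher (4.79 to 6.74). A gene was called where its levels averaged at least 5 CPM and differed 2-fold or more, and both members that met the level, Serpina3f and Serpina3g, were called higher. In this contrast 0.97% of all 9592 genes tested were called higher. Since the members were listed for this contrast, nothing is read from their count.

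In VitA-Col1a1+ cells Serpina3f and Serpina3g are not ranked, because their intervals overlapped both over all barcodes and among Lrat-positive cells. Serpina3f was 14.4-fold higher in DEN+WAD (10.5 to 20.3), from 39 UMIs in chow, and Serpina3g was 9.37-fold higher (7.81 to 11.3). Serpina3n differed by 1.24-fold (1.09 to 1.41) and Serpina3c by 0.933-fold (0.720 to 1.22). Serpina3i was 9.29-fold higher (2.46 to 78.5) over 2 chow UMIs and Serpina3m 7.24-fold (1.18 to 298) over 1 chow UMI. The summed members were 3.98-fold higher (3.64 to 4.35). Of 4 members that met the level, 2 were called higher (Serpina3f and Serpina3g), with 4.39% of 10241 genes called higher over the whole contrast. The median log2 ratio of the 2 and 4 members that met the level was 2.39 with VitA+Col1a1+ and 1.77 with VitA-Col1a1+ sorting, against -0.07 and -0.03 over all genes tested. Since the members were listed for this contrast, nothing is read from these medians or from the count. Serpina3f in VitA-Col1a1+ cells met the level only through its DEN+WAD library.

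Restricting the barcodes to Lrat-positive cells with at least 5000 UMIs gave higher Serpina3g ratios and similar Serpina3f ratios. In such VitA+Col1a1+ cells Serpina3g was 14.0-fold (10.1 to 20.2) and Serpina3f 2.68-fold (2.15 to 3.39) higher in DEN+WAD, and in VitA-Col1a1+ cells 22.6-fold (15.2 to 35.4) and 13.2-fold (8.77 to 21.0). Serpina3n stood at 1.14 (0.963 to 1.36) in Lrat-positive VitA-Col1a1+ cells, an interval that held 1. The fold of Serpina3g was thus the larger of the pair among Lrat-positive VitA+Col1a1+ cells. In the VitA-Col1a1+ ones the intervals of the pair overlapped, over 24 and 23 chow UMIs, and no order is read. Serpina3c was lower in the same cells, at 0.695 (0.514 to 0.948).

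Other cell types moved with treatment too. Summed endothelial markers stood at 305 CPM in DEN+WAD and 634 CPM in chow of the VitA+Col1a1+ gate, and at 2006.3 and 676 CPM for VitA-Col1a1+ cells. Alb was 3.47-fold higher in DEN+WAD in VitA+Col1a1+ and 8.86-fold higher in VitA-Col1a1+ cells. Among Lrat-positive cells that carried fewer than 3 genes of each other cell type's marker list, the ratios were 15.5 (10.6 to 23.5) for Serpina3g and 2.69 for Serpina3f in VitA+Col1a1+ and 42.8 (22.4 to 93.8) and 14.3 (8.86 to 24.7) in VitA-Col1a1+ cells. The last Serpina3g ratio rests on 9 UMIs in chow. Single barcodes weighed on the chow side as well, and without the fullest barcode of each library, an alternative chosen after seeing the data, Serpina3f in VitA+Col1a1+ cells stood at 4.14-fold instead of 2.69-fold and Serpina3g in VitA-Col1a1+ cells, where 1 barcode held 55 of 120 chow UMIs, at 16.6-fold instead of 9.37-fold.

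**Figure D2:**
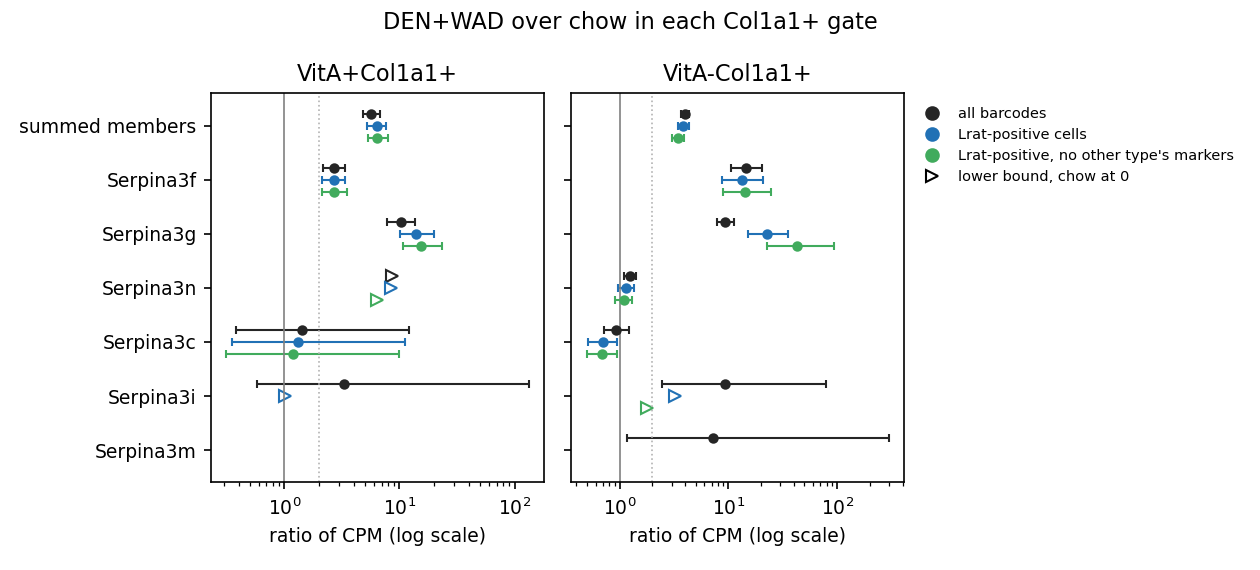
Ratio of DEN+WAD to chow CPM (log axis) for each member and for their sum in the VitA+Col1a1+ and VitA-Col1a1+ gates, with 95% counting intervals, over all barcodes (black), Lrat-positive cells (blue) and those without other types' markers (green), open triangles for ratios over the floor of 3 UMIs where chow held 0, and lines at 1 and 2. Over all barcodes Serpina3g and Serpina3f lie above 2 in both gates, at 10.2 and 2.69 in VitA+Col1a1+ and at 9.37 and 14.4 in VitA-Col1a1+, and Serpina3c lies near 1.

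The members were then followed by cell type, from cells of at least 2000 UMIs with 3 or more genes of a marker list. Of VitA+Col1a1+ cells, 84.5% after DEN+WAD and 75.7% on chow held the stellate list and no other. In these 8711 DEN+WAD cells Serpina3g stood at 83.5 CPM and Serpina3f at 38.0 CPM, against 5.22 and 14.1 CPM in 193 chow cells, or 16-fold (10.7 to 25.0) and 2.69-fold (2.11 to 3.49). A single cell held 30 of the 65 chow Serpina3f UMIs, which weighs on the Serpina3f ratio. Serpina3n stood at 1.98 CPM in DEN+WAD stellate cells and gave 0 UMIs in chow ones, at least 3.04-fold. These cells held 10118 of the 12725 Serpina3g UMIs of the DEN+WAD library.

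The VitA-Col1a1+ gate was made of other cells in chow than in DEN+WAD. Cells with both stellate and portal fibroblast genes made up 83.5% of chow (540 cells) and 47.0% of DEN+WAD cells (1232), and cells with stellate genes alone 3.71% (24) and 25.8% (677). Cells with both lists held Serpina3n at 22.2 CPM in chow and 33.3 CPM in DEN+WAD (1.499-fold, 1.31 to 1.72) and Serpina3c at 5.80 and 7.67 CPM (1.32-fold, 1.01 to 1.75). The same cells held little Serpina3f and Serpina3g, with 1.10 CPM and 5.01 CPM in chow and 8.48 and 15.7 CPM in DEN+WAD, or 7.73-fold (4.50 to 14.4) and 3.12-fold (2.39 to 4.14). Most of their 64 chow Serpina3g UMIs came from the single barcode named above, so the Serpina3g ratio rests largely on that barcode. Serpina3n was the leading member of these cells with either treatment.

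Between these kinds of cell in the VitA-Col1a1+ DEN+WAD library, Serpina3n and Serpina3c were higher where portal fibroblast genes were present, and Serpina3f and Serpina3g where they were not. In its cells with stellate genes alone Serpina3f stood at 46.5 CPM, Serpina3g at 62.9, Serpina3n at 0.690 and Serpina3c at 0.591 CPM. The 24 such chow cells held 3 UMIs of Serpina3f and 1 of Serpina3g, and their ratios of 6.79 (2.31 to 33.0) and 27.5 (4.92 to 1088.5) are correspondingly wide. The share of cells of each kind differed between treatments, and both makeup and level within cells enter the ratio of a whole gate.

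Endothelial cells without Lrat held the highest Serpina3f and Serpina3g levels of any class. They stood at 147 and 349 CPM in VitA-Col1a1+ DEN+WAD (216 cells) and 30.7 and 79.1 CPM in chow (25 cells), that is 4.80-fold (2.83 to 8.85) and 4.42-fold (3.17 to 6.34) higher in DEN+WAD. The 216 cells gave 978 of the 3573 Serpina3g UMIs of that DEN+WAD library, and its cells with stellate genes alone gave 638. In VitA+Col1a1+ DEN+WAD 92 endothelial cells held 161 and 340 CPM. The library labelled VitA-Col1a1- had 1618 of them, with 194 CPM of Serpina3f, 375 CPM of Serpina3g and 7.68 CPM of Serpina3i.

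In the library labelled VitA-Col1a1- most classes could be set beside each other. Cells with smooth muscle, portal fibroblast or neutrophil genes alone were too few (0, 6 and 9). Stellate cells (1215) held 206 CPM of Serpina3g, 76.4 of Serpina3f, 34.2 of Serpina3n and 3.62 of Serpina3i. Macrophages (570) held 109 CPM of Serpina3g and T or NK cells (128) 211 CPM. Cells with stellate and portal fibroblast genes were the stromal class with the most Serpina3n, at 106 CPM, against 34.2 CPM in stellate cells and 14.1 CPM in cells with stellate and smooth muscle genes. Hepatocytes (86) had the reverse pattern of stellate cells, with 333 CPM of Serpina3n, 153 of Serpina3m and 418 of Serpina3k and with 2.23 CPM of Serpina3f and 1.34 of Serpina3g. For every 1000 Alb UMIs, Serpina3n gave 8.81 UMIs in hepatocytes and 142 in stellate cells. The hepatocyte gene Serpina3k gave 11.0 and 122 on this scale, and 99.9 in endothelial cells. The scale thus does not set stellate Serpina3n apart from carried-over RNA, which was not tested. Serpina3m gave 4.04 and 5.64 on this scale, and between 0 and 17.2 over the other classes, most of which held few UMIs of it.

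**Figure D3:**
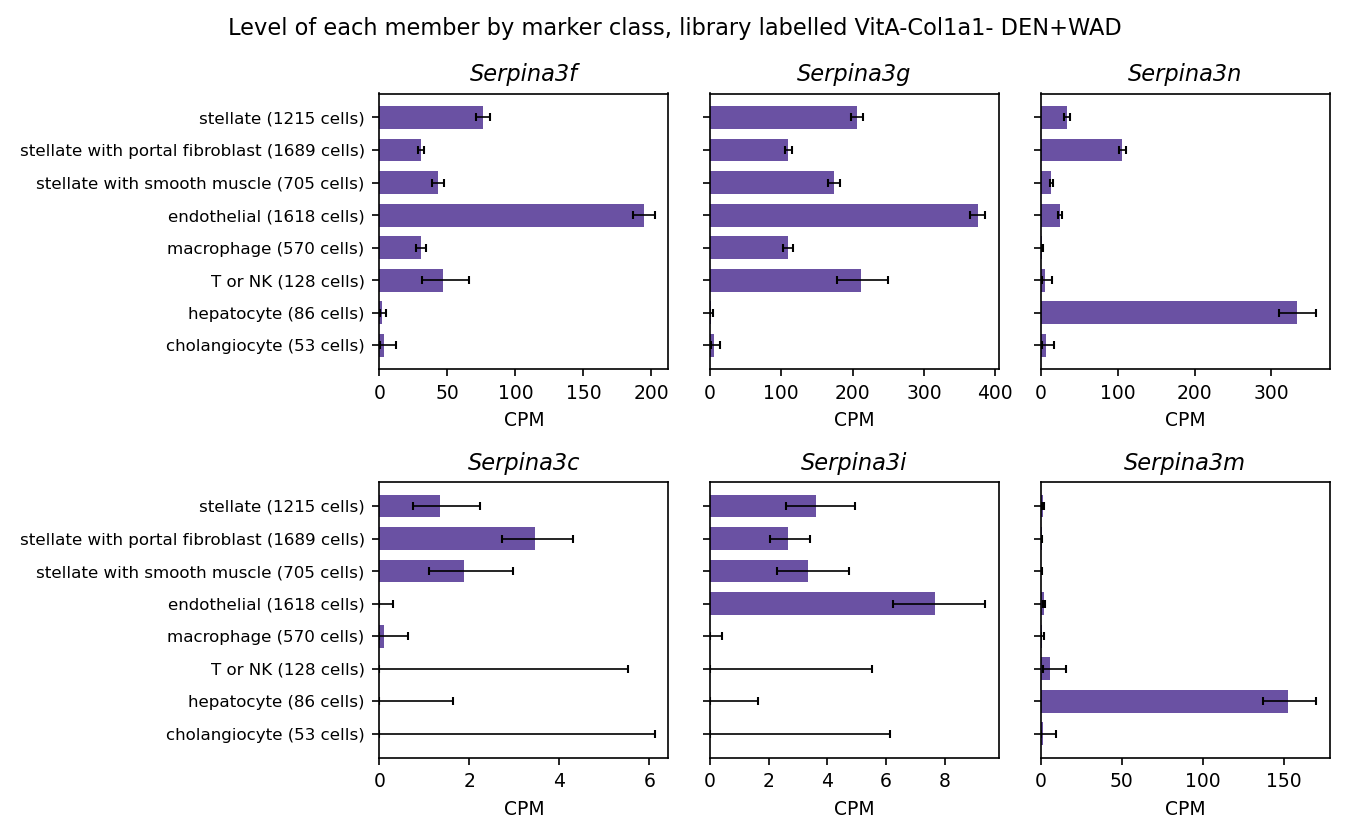
CPM of each member in the marker classes of the library labelled VitA-Col1a1- (bars, each on a linear axis from 0, with 95% counting intervals and the number of cells beside the class name). Serpina3f and Serpina3g are highest in endothelial cells at 194 and 375 CPM, Serpina3n and Serpina3m in hepatocytes at 333 and 153 CPM, and Serpina3c in cells with stellate and portal fibroblast genes at 3.46 CPM.

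How many Lrat-positive cells held a member was counted in cells thinned to 5000 UMIs each, which removes the difference in depth. The kinds of cell given above differed between libraries, so these shares compare different mixes and not stellate cells alone. Among VitA+Col1a1+ cells, 28.9% of 10044 from DEN+WAD mice carried at least 1 counted member, as did 6.996% of 243 chow cells. Of VitA-Col1a1+ cells, 20.1% of 1883 from DEN+WAD and 9.58% of 480 from chow did so, and 52.8% of 4278 cells of the library labelled VitA-Col1a1-. Unthinned, the shares were 47.9% and 15.6%, 36.5% and 25.8%, and 69.8%. Cells with other types' markers made up 3.17% and 11.9% of Lrat-positive cells in the VitA+Col1a1+ DEN+WAD and chow libraries, 12.3% and 5.42% in the VitA-Col1a1+ ones and 29.1% in the library labelled VitA-Col1a1-, and their part in these shares was not tested beyond leaving them out.

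Serpina3g was the member most cells held in DEN+WAD. It was in 23.0% (22.2 to 23.9) of VitA+Col1a1+ DEN+WAD cells (41.4% unthinned) and in 3.70% (1.71 to 6.91) of chow cells (10.3% unthinned). In VitA-Col1a1+ cells it was in 12.6% (11.1 to 14.2) in DEN+WAD (23.3% unthinned) and 0.625% (0.129 to 1.82) in chow (2.29% unthinned). The library labelled VitA-Col1a1- had it in 40.3% (38.9 to 41.8). Serpina3f was in 10.0%, 3.29%, 6.69%, 1.04% and 18.1% of cells in the same order, and in 18.6%, 9.05%, 13.0%, 1.88% and 28.3% unthinned. As a background, 3.49% of hepatocytes of the library labelled VitA-Col1a1- held Serpina3g and 4.65% Serpina3f at a median of 16687 UMIs, where 49.1% and 24.4% of its stellate cells did at a median of 8542. The unthinned VitA-Col1a1+ chow shares of both genes were at or below those hepatocyte shares. These come from another library and another depth, so the background of the chow library was not measured, and its shares are not read as expression. The DEN+WAD ratios over these cells therefore have a denominator of 24 Serpina3g and 23 Serpina3f UMIs with a background that was not measured. They are ratios of UMIs and not sizes of a change in expression.

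Serpina3n was found in a minority of Lrat-positive cells, and in more of them outside VitA+Col1a1+. It was in 0.906% of VitA+Col1a1+ DEN+WAD cells and in 0 of 243 chow cells, which allows cells with a UMI up to 1.23% at 3 counts (1.51% by the upper Clopper-Pearson limit). It was in 3.35% and 5.63% of VitA-Col1a1+ DEN+WAD and chow cells and in 11.7% of cells in the library labelled VitA-Col1a1-. Alb was in 51.6% of the same cells of that library, so hepatocyte RNA may enter the 11.7%, which was not tested. Serpina3c was in 3.13% of VitA-Col1a1+ chow cells and in 1.70% of DEN+WAD ones, and in 0.209% of VitA+Col1a1+ DEN+WAD cells. Serpina3i and Serpina3m reached at most 1.57% and 0.701% of cells, in the library labelled VitA-Col1a1-.

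**Figure D4:**
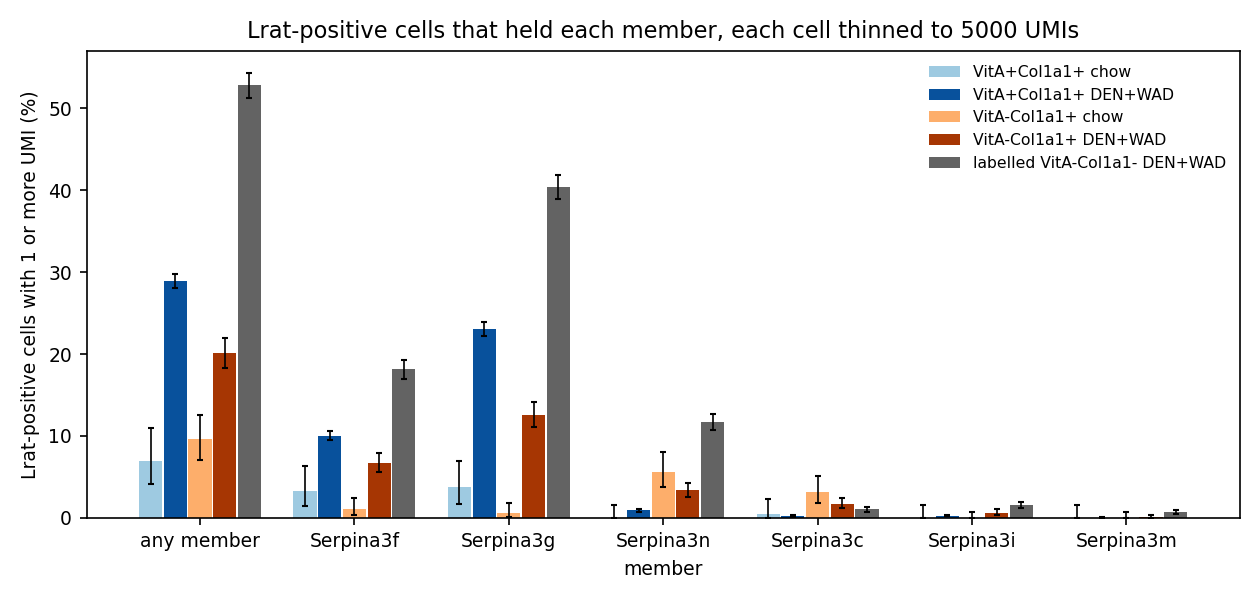
Percent of Lrat-positive cells with at least 1 UMI of any member or of each member, each cell thinned to 5000 UMIs (bars, with exact 95% binomial intervals, 1 colour per library). Serpina3g is in 23.0% and 12.6% of VitA+Col1a1+ and VitA-Col1a1+ DEN+WAD cells and in 3.70% and 0.625% of chow cells, and Serpina3n is the leading member of VitA-Col1a1+ chow at 5.63%.

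The UMIs of each member were spread unevenly over cells. In VitA+Col1a1+ DEN+WAD the 12234 Serpina3g UMIs of Lrat-positive cells lay in 4157 cells, and 649 of these held 50% of them. Serpina3f had 5270 UMIs in 1867 cells, 230 of which held 50%. Serpina3n had 627 UMIs in 206 cells, and 23 cells, the fullest with 72 UMIs, held 50%. Of 18 Serpina3m UMIs 16 came from 1 cell.

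Serpina3f was more frequent in cells that also held Serpina3g. In thinned VitA+Col1a1+ DEN+WAD cells Serpina3f was in 21.7% of cells with Serpina3g and in 6.55% of cells without it. The shares were 27.4% and 3.71% in VitA-Col1a1+ DEN+WAD, whereas the library labelled VitA-Col1a1- had 31.6% and 9.05%. Serpina3n did not share this pattern, being in 1.17% of cells with Serpina3g and 0.828% without in VitA+Col1a1+ DEN+WAD, 2.53% and 3.46% in VitA-Col1a1+ DEN+WAD, and 12.1% and 11.5% for the library labelled VitA-Col1a1-. At least 2 members were in 5.40%, 4.46% and 17.9% of cells of these libraries and in 0.412% and 0.833% of VitA+Col1a1+ and VitA-Col1a1+ chow cells.

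Lrat-positive cells were last divided by whether they held a Cxcl9 or Cxcl10 UMI. Both chemokines were themselves higher in DEN+WAD, Cxcl9 34.2-fold (17.3 to 79.3) in VitA+Col1a1+ and 21.8-fold (17.3 to 27.8) in VitA-Col1a1+ cells, and Cxcl10 2.65-fold and 2.91-fold. In VitA+Col1a1+ DEN+WAD 3471 cells held either chemokine and 6573 neither, at median depths of 14153 and 13029 UMIs. Serpina3f stood at 62.2 CPM with and 19.3 CPM without them (3.22-fold, 3.04 to 3.41), and Serpina3g at 125 and 56.7 CPM (2.21-fold, 2.13 to 2.29). Serpina3n stood at 5.03 and 3.76 CPM (1.34-fold). Both members that met the level were called, where 0.607% of all genes were, and the relation was named with the list, so nothing is read from this count.

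In the other DEN+WAD libraries the ratio of Serpina3f was again larger than that of Serpina3g, and that of Serpina3g larger than that of Serpina3n. In VitA-Col1a1+ DEN+WAD Serpina3f stood at 54.4 CPM with and 11.98 without the chemokines (4.54-fold, 3.94 to 5.24), Serpina3g at 90.0 and 25.0 (3.602-fold, 3.25 to 3.99) and Serpina3n at 24.8 and 13.7 CPM (1.81-fold), with 2 of 3 members called beside 2.8% of all genes. In the library labelled VitA-Col1a1- Serpina3f stood at 109 and 31.4 CPM (3.48-fold), Serpina3g at 276 and 128 CPM (2.16-fold) and Serpina3n at 54.5 and 70.7 CPM (0.772-fold, 0.720 to 0.826), with 2 of 3 called beside 3.12%. Alb was lower as well in the chemokine-positive cells of that library, at 555 against 1516.9 CPM. Without other types' markers, where Alb stood at 197 and 178 CPM, Serpina3n was at 0.865-fold (0.787 to 0.949). The scarce Serpina3i stood at 2.89-fold (1.77 to 4.82) in VitA+Col1a1+ DEN+WAD, 5.27-fold (2.26 to 13.7) in VitA-Col1a1+ DEN+WAD and 1.26-fold (0.9496 to 1.67) in the library labelled VitA-Col1a1-. Serpina3m had 17 UMIs with and 1 without the chemokines in VitA+Col1a1+ DEN+WAD, 16 of them from 1 cell, and was at 0.522-fold (0.379 to 0.710) in the library labelled VitA-Col1a1-.

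The chow libraries had fewer chemokine-positive cells, 61 in VitA+Col1a1+ and 101 in VitA-Col1a1+. VitA+Col1a1+ chow cells held Serpina3f at 23.4 CPM with and 9.78 without them (2.39-fold, 1.49 to 3.82) and Serpina3g at 12.4 and 3.64 CPM (3.40-fold, 1.65 to 7.06), and 2 of 2 members were called beside 1.04% of genes. A single cell held 30 of these 79 Serpina3f UMIs, so the Serpina3f ratio depends on that cell. Serpina3g met the level only through the chemokine-positive cells. The relation was named with the list, so nothing is read from the members called in any library. VitA-Col1a1+ chow cells held Serpina3f at 4.29 and 1.35 CPM (3.19-fold, 1.28 to 7.90), from 11 and 12 UMIs, and their Serpina3g ratio of 2.09 had an interval that held 1 (0.806 to 5.09). Without other types' markers these ratios were 1.48 (0.409 to 4.52) and 0.445 (0.0100 to 3.32), so no direction is read there. Of the 2 members that met the level there, Serpina3n (1.06-fold) and Serpina3c (1.78-fold), 0 were called, where 0.927% of genes were.

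Alb moved with the chemokines, at 127 CPM in chemokine-positive and 5.41 CPM in negative VitA+Col1a1+ DEN+WAD cells. Without the cells that held other types' markers Alb stood at 2.84 and 2.74 CPM, and Serpina3f remained 3.26-fold and Serpina3g 2.21-fold higher. In VitA-Col1a1+ DEN+WAD the same step left Alb at 59.1 and 6.95 CPM, Serpina3f at 4.09-fold and Serpina3g at 3.21-fold.

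Cells with both chemokines were the richest in Serpina3f and Serpina3g. In VitA+Col1a1+ DEN+WAD the 188 cells with both held 186 CPM of Serpina3f and 313 CPM of Serpina3g, the 3107 with Cxcl10 alone 54.4 and 112 CPM, and the 176 with Cxcl9 alone 24.4 and 85.7 CPM. Serpina3n went with Cxcl9 in the Col1a1+ gates: it stood at 16.3 CPM with both, 11.0 with Cxcl9 alone, 3.67 with Cxcl10 alone and 3.76 with neither in VitA+Col1a1+ DEN+WAD, and at 83.1, 49.6, 10.5 and 13.7 CPM in VitA-Col1a1+ DEN+WAD. Without other types' markers the values with both, Cxcl9 alone, Cxcl10 alone and neither were 8.67, 10.2, 3.74 and 3.28 CPM in VitA+Col1a1+ DEN+WAD and 128, 75.8, 7.24 and 13.9 CPM in VitA-Col1a1+ DEN+WAD. Few cells carry this, since the 139 and 65 Serpina3n UMIs of VitA-Col1a1+ cells with both and with Cxcl9 alone lay in 15 and 8 cells. In the library labelled VitA-Col1a1- the values were 54.2, 42.7, 59.7 and 70.7 CPM over all Lrat-positive cells, and 96.5, 74.7, 45.3 and 62.9 CPM without other types' markers, so the order there depended on which cells were read.

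In cells thinned to 5000 UMIs the levels of Serpina3f and Serpina3g were higher in each bin of more chemokine UMIs in the 3 DEN+WAD libraries, some neighbouring bins with overlapping intervals. The chow libraries, with at most 24 cells in any bin above 0, had no such order. Over 0, 1, 2 to 3, 4 to 7 and 8 or more chemokine UMIs, Serpina3g stood at 61.3, 88.3, 116, 158 and 419 CPM in VitA+Col1a1+ DEN+WAD (7822, 1031, 533, 318 and 340 cells), and Serpina3f at 23.3, 31.6, 60.0, 93.1 and 276 CPM. In VitA-Col1a1+ DEN+WAD Serpina3g went from 27.9 to 316 CPM and Serpina3f from 16.7 to 287.5 CPM between the end bins. In the library labelled VitA-Col1a1- Serpina3g went from 144 to 572.5 CPM and Serpina3f from 41.8 to 344 CPM. Serpina3n went from 2.10 CPM (1.67 to 2.60) to 12.4 CPM (7.65 to 18.9) between the end bins of VitA+Col1a1+ DEN+WAD, the latter from 21 UMIs. It stood at 10.6 CPM (8.43 to 13.2) and 21.9 CPM (8.79 to 45.1) in VitA-Col1a1+ DEN+WAD, which overlapped, and at 50.2 and 47.5 CPM in the library labelled VitA-Col1a1-.

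**Figure D5:**
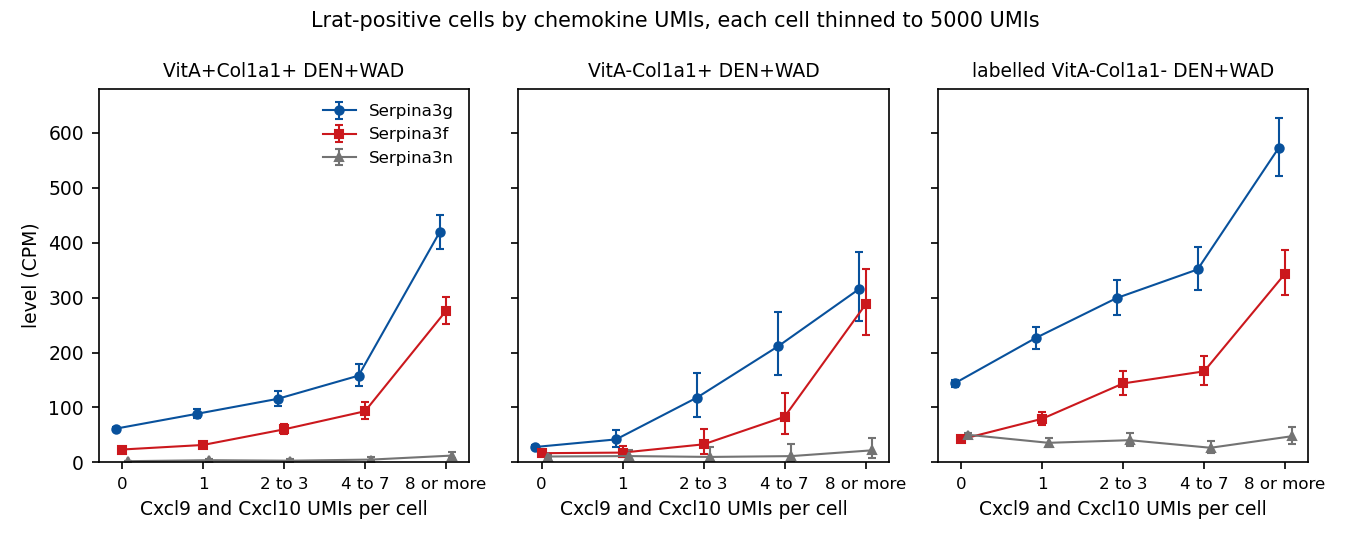
CPM of Serpina3g, Serpina3f and Serpina3n in Lrat-positive cells of the 3 DEN+WAD libraries, binned by the UMIs of Cxcl9 and Cxcl10 per cell after thinning to 5000 UMIs, with 95% counting intervals. In VitA+Col1a1+ DEN+WAD Serpina3g goes from 61.3 to 419 CPM and Serpina3f from 23.3 to 276 CPM between the end bins, and Serpina3n from 2.10 to 12.4 CPM.

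Over single cells, which share a library and its depth, the correlations were weak. Across 10044 thinned VitA+Col1a1+ DEN+WAD cells, Pearson's r of log counts was 0.299 between Serpina3f and Serpina3g, 0.263 between Serpina3f and Cxcl10, 0.259 between Serpina3g and Cxcl10, and 0.025 between Serpina3n and Serpina3g. Among 7675 genes present in at least 5% of these cells, those most like Serpina3g were Ccl2 (r = 0.300), Serpina3f (0.299), Cxcl10 (0.259), Gbp4 (0.196) and Gbp2 (0.178). Those most like Serpina3f were Serpina3g (0.299), Cxcl10 (0.263), Ccl2 (0.255), Iigp1 (0.223) and Gbp4 (0.196). Ccl2 encodes a monocyte attractant, and Gbp2, Gbp4 and Iigp1 encode interferon-induced GTPases.

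Lists of genes related to the family by pathway or target were read in the same DEN+WAD to chow contrast, in which 3.11% of genes were called lower in VitA+Col1a1+ and 4.94% among VitA-Col1a1+ ones. Of 17 interferon gamma response genes that met the level, 2 were called higher in VitA+Col1a1+ (median log2 ratio 0.26) and 4 in VitA-Col1a1+ (0.74), with 0 lower in each. Cxcl9 and Cxcl10 were the pair called in VitA+Col1a1+ and were among those called in the other gate. Cxcl9 met the level only through DEN+WAD, with 1.30 and 4.93 CPM in VitA+Col1a1+ and VitA-Col1a1+ chow. Both chemokines were also named with the member list, so nothing is read from these counts. Gbp2 stood at 1.93-fold in VitA+Col1a1+ and Gbp4 at 2.99-fold in VitA-Col1a1+ cells. Of 9 type I interferon genes 0 were called in VitA+Col1a1+ (median 0.30) and 4 higher in VitA-Col1a1+ cells (0.95), Rsad2 (3.62-fold), Usp18 (2.23-fold) and Ifit3 (2.09-fold) with the largest ratios. Of 12 NF-kB targets 4 and 3 were called higher (median 0.62 and 0.60), among them the chemokines Cxcl2, at 4.25-fold and 3.87-fold, and Ccl2, at 3.49-fold and 3.62-fold.

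Acute-phase genes were mixed, and the proteases that serpins inhibit were not called. Of 5 IL-6 and acute-phase genes that met the level in VitA+Col1a1+ cells 0 were called (median -0.15), and of 12 in VitA-Col1a1+ cells 3 were called higher and 2 lower (median 0.00), Lcn2 at 6.06-fold, Steap4 at 2.34-fold, Il6ra at 0.409-fold and C3 at 0.395-fold. The third higher one was Hp, a hepatocyte plasma protein with 2 UMIs in chow. Lcn2 and Hp met the level only through the DEN+WAD library, with 2.40 and 0.133 CPM in chow, so nothing is read from that count. Not called were Il6st, at 0.772-fold in VitA+Col1a1+, and Il6, at 0.574-fold in VitA-Col1a1+ cells. Of 3 cathepsins, the target proteases that met the level, 0 were called in each gate, with ratios of 1.08 for Ctsb, 1.04 for Ctsl and 1.38 for Ctsk in VitA+Col1a1+ and of 1.504, 1.26 and 1.25 in VitA-Col1a1+ cells. Of the other clade A serpins, the alpha-1-antitrypsin genes Serpina1a, Serpina1b, Serpina1c and Serpina1e of hepatocytes met the level only through the VitA-Col1a1+ DEN+WAD library, with 12.9 to 38.0 CPM there and 0.200 to 0.6001 CPM in chow, so no count or median is given for them. Alb moved with them, at a ratio of 8.86.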

How the data were processed

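The 5 matrices hold raw UMI counts per gene and barcode, which the authors deposited after Cell Ranger 3.1.0 (mm10). Cell Ranger 6.1.2 stands in the header of the VitA-Col1a1- matrix. Kit versions v3.1 and v2 are both named in the labels. All deposited barcodes counted as cells (lowest total 500 UMIs), no doublet caller was run, and cells with 3 or more genes of another cell type's list were left out as an alternative. UMIs were summed per library (CPM, floor 3 UMIs). Intervals are exact Poisson for levels, conditional binomial for ratios and Clopper-Pearson for shares. Lrat-positive cells held at least 1 Lrat UMI and 5000 UMIs, and were thinned to 5000 in 1 draw (seed 7). Members and lists were chosen with earlier results of these data known. The text names every member, Cxcl9 and Cxcl10, the other Serpina3 genes, the most extreme ratios of each list, and the 5 genes most correlated with the top members. The classes with stellate and portal fibroblast or smooth muscle genes and the alternatives without the fullest barcode or with the stellate class alone were added after seeing the data. Steps were tested on simulated data with Python 3.11.15, numpy 2.4.6, scipy 1.17.1, pandas 2.3.3, Biopython 1.88, matplotlib 3.10.9 and R 4.3.3 with edgeR 4.0.16 (TMM factors only).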

Additional observations from a re-analysis of the deposited data

How the results depend on the processing

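No paired analysis was possible because each group is 1 library and the comparisons come from no test. Of 273 recomputed values, 6 with an interval that left out 1 changed direction, as did 7 ratios whose interval held 1 (5 of Serpina3c and 2 of Serpina3g), and the cause was not tested. The summed DEN+WAD to chow ratio (5.66 in VitA+Col1a1+, 3.98 in VitA-Col1a1+) was 7.18 and 4.62 without the fullest barcode of each library, and in VitA-Col1a1+ 2.44 without cells with other types' markers and 12.2 in the stellate class alone. Members called higher (2 in each gate) were 4 in each gate with no level filter and 1 in VitA+Col1a1+ at a fold of 3. Serpina3n in VitA-Col1a1+ was 0.914 by the mean over cells. In the order VitA+Col1a1+ DEN+WAD, VitA-Col1a1+ DEN+WAD, VitA+Col1a1+ chow, VitA-Col1a1+ chow and labelled VitA-Col1a1-, the share of Lrat-positive cells with any member was 47.9%, 36.5%, 15.6%, 25.8% and 69.8% at full depth and 15.6%, 11.9%, 1.65%, 4.58% and 34.3% thinned to 2000 UMIs. For VitA-Col1a1+ DEN+WAD and for the library labelled VitA-Col1a1- it was 17.9% and 50.96% with at least 3 Lrat UMIs and 16.9% and 46.4% without other types' markers. The summed ratio by chemokine was 2.41, 3.16, 2.58, 1.41 and 1.87. Thinned, it was 2.82, 3.94 and 2.13 in the DEN+WAD libraries and 0.853 in VitA-Col1a1+ chow. By Cxcl9 alone it was 3.04, 5.20 and 1.67 in the DEN+WAD libraries and 3.19 in VitA-Col1a1+ chow, and by Cxcl10 alone 2.58 in VitA-Col1a1+ DEN+WAD. With at least 2 chemokine UMIs it was 3.0, 4.39 and 2.11 in the DEN+WAD libraries and 3.92 in VitA+Col1a1+ chow, and without other types' markers 2.77 for VitA-Col1a1+ DEN+WAD and 1.93 for the library labelled VitA-Col1a1-. At least 2 chemokine UMIs also turned Serpina3m in VitA+Col1a1+ DEN+WAD (0.185) and Serpina3c (0.996) and Serpina3f (0.676) in VitA-Col1a1+ chow, and leaving out other types' markers turned Serpina3m in the library labelled VitA-Col1a1- (1.49) and Serpina3g in VitA-Col1a1+ chow (0.445, and 0.937 by Cxcl10 alone), and left no ratio for Serpina3m in VitA+Col1a1+ DEN+WAD (0 against 1 UMI). The chow libraries, with 6145748 and 14996899 UMIs, set the precision: 1 UMI of a member decides whether a ratio can be given.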
